A study of Mus musculus with 14 samples.

Results

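The protein-coding genes for the proteins of the cytosolic ribosome were followed in mouse livers that lack Mettl3 in hepatocytes. Members were chosen by symbol: those starting with Rpl or Rps and a digit, Rplp0 to Rplp2, and Rpsa, each with a protein-coding transcript. Symbols with -ps and the Rps6k and Rps19bp genes were left out. This gave 85 of the 54446 genes in the table: 49 of the large subunit, 33 of the small subunit and 3 of the stalk. The knockout group held 8 livers of C57BL/6 mice with a floxed Mettl3 gene and Alb-Cre, and the control group held 6 livers of C57BL/6 mice with the floxed gene and no Cre. All mice were 5 weeks old. Alb-Cre is driven by the albumin promoter, which is active in hepatocytes, so the other cells of a knockout liver keep Mettl3. METTL3 is the catalytic subunit of the enzyme that writes N6-methyladenosine on mRNA, and the study asked how its loss alters liver homeostasis, hepatocyte ploidy and circadian expression.

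The cytosolic ribosome is built from a small subunit, which reads the mRNA, and a large subunit, which forms the peptide bond and carries a stalk that recruits the translation factors. Its proteins are made in nearly matched amounts, from mRNAs that mostly start with a run of pyrimidines, the 5′ terminal oligopyrimidine (TOP) tract, through which mTOR signalling controls their translation. Ribosomal protein genes have left many processed pseudogenes in mammalian genomes, and in liver their mRNAs serve the heavy output of secreted proteins.

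Total RNA of whole liver was sequenced, and the values below are the authors' normalised estimated counts per gene. The value of a single read in each library put the depth at 11.1 to 30.9 M reads in knockout livers and 13.7 to 33.8 M reads in control livers. Mettl3 itself had 76.9 to 122 (median 99.1) in knockout livers and 199 to 263 (median 219) in control livers, with no overlap between the groups, a log2 change of -1.17 (limma adjusted p = 1.32e-05). The 12 hepatocyte markers summed to 779731 to 1165000 in knockout livers and 1182430 to 1405840 in control livers, high in every library and with no overlap. Knockouts 3, 6 and 7 stood apart: their summed values of 12 proliferation markers were 1370, 2651 and 2579, against 525 to 905 in the other knockout livers and 344 to 420 in control livers. Their Cdkn1a values were 481, 520 and 550, against at most 162 in the other knockout livers and at most 41.1 in control livers. The labels do not give sex, but Y-linked genes marked 4 knockout and 4 control libraries and a high Xist level marked the other 4 knockout and 2 control libraries. The labels name each library as a liver and do not say that each came from its own animal, so p-values measure the spread between these libraries. In whole liver, fewer cells of a type and less RNA per cell cannot be told apart.

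Ribosomal protein mRNAs were abundant, and the values assigned to them were not even. Per kilobase of transcript, Rpl41, a very short peptide of the large subunit, was highest, with 37196 averaged over the 14 libraries, followed by the stalk proteins Rplp1 with 23964 and Rplp2 with 20569. The median of the 82 members tested was 5466 per kilobase, and the lowest was Rpl39l with 20.4. By subunit the median level per kilobase was 4412 over 47 large subunit genes and 5638 over 32 small subunit genes. These levels leave out the copies described further on. Some low members had most of their summed value in copies, such as Rpl12 (95.6 per kilobase, copies 98.0%) and Rpl5 (145 per kilobase, copies 97.7%). By value not corrected for length, Rpl13a, Rpsa, Rpl41 and Rps2 were among the highest. Rpl3l, Rpl10l and Rps27rt stayed below the filter, which asked for 10 or more in at least 6 libraries. These are relatives of Rpl3, Rpl10 and Rps27, and Rpl3l is known as a form of heart and skeletal muscle. The genes are scattered over the genome, with 14 on chromosome 7 and 8 each on chromosomes 9 and 17.

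RefSeq promoter windows, 300 bases from 250 before to 50 after the annotated start, were found for 65 of the 85 members. Motifs were searched in these letters, a choice made after the values were seen. The sequence CCGGAAG, the ETS factor motif, lay on either strand in at least 1 window of 26 of the 65 members (40%), against 9.93% of all 27025 genes with a window. The pyrimidine run CTCTTTC on the gene's strand was in 20% of members against 4.6% of all genes, CTTTTCC on the gene's strand in 13.8% against 4.56%, and AAGATGGC, the YY1 motif, on either strand in 9.23% against 3.19%. The TATA box letters TATAAA on the gene's strand were in 9.23% of members and 9.77% of all genes. At the annotated start itself, C followed by C or T at the next 4 bases stood in 14 of the 65 members (21.5%), against 3.01% of all genes. A match is only a run of letters, and a start annotated a few bases away from the one used would miss a TOP tract. Printed here, 5′ to 3′ on the gene's strand, are the 80 bases before and the 20 bases from the start for members whose values are given further on. They are Rpl35, Rps12 and Rps19, which were called higher, and the pair Rps27l and Rps27. The ratio of this pair passed the threshold over all libraries but not in several fits with libraries left out. Rpl11 and Rps7 are also shown, with log2 changes of -0.05 and -0.01 in their own values. Summed with the copies described further on, Rps7 changed by 0.54. In GRCm38.p6 they are chr2:39005112-39005211 on the minus strand for Rpl35, chr10:23787190-23787289 (minus) for Rps12, chr7:24884512-24884611 (plus) for Rps19, chr9:66946006-66946105 (plus) for Rps27l, chr3:90213629-90213728 (minus) for Rps27, chr4:136053374-136053473 (minus) for Rpl11 and chr12:28635934-28636033 (minus) for Rps7. Capitals mark the motifs named above. In Rps7 the ETS motif is on the other strand, in Rpl35 the pyrimidine run begins at the start itself, and the Rps19 stretch holds none of them. C followed by C or T at the next 4 bases of the start, which capitals do not mark as such, is found in Rpl35 and Rps27.
Rpl35: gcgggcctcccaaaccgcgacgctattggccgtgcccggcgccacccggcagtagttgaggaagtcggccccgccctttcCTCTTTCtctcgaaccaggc
Rps12: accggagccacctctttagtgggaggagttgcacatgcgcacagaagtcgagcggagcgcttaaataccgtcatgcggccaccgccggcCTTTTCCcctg
Rps19: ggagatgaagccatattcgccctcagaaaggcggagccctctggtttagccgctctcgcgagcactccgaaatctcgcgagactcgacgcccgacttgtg
Rps27l: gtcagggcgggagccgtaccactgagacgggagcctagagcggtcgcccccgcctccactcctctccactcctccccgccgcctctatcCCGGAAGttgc
Rps27: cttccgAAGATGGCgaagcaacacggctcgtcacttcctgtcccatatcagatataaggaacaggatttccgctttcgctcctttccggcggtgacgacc
Rpl11: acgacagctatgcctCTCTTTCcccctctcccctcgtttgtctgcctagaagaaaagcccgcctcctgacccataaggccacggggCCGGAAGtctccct
Rps7: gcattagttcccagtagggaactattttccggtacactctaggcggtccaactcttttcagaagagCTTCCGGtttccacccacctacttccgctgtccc

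Together the 85 genes took a larger share of the liver's RNA in most knockout livers. Of the summed values outside ribosomal RNA genes they made up 1.80, 1.94, 2.68, 2.56, 1.73, 3.87, 3.62 and 2.22% in knockouts 1 to 8, and 1.69, 1.37, 1.36, 1.73, 1.61 and 1.68% in controls 1 to 6. Knockouts 6 and 7 were highest, and knockout 5 fell within the range of the control livers. The mean was 2.55 ± 0.81% in knockout livers (SD, n = 8) and 1.57 ± 0.17% in control livers (SD, n = 6). Without knockouts 3, 6 and 7 the knockout mean was 2.05 ± 0.34% (SD, n = 5). The total of all values, against which this share is taken, was itself lower, at 16.8 to 20.7 M in knockout livers against 21.5 to 27.6 M in control livers, and the albumin mRNA had 61317 to 120119 in knockout livers against 140884 to 229192 in control livers. The part of that total in the share was not tested. With libraries scaled to equal sums outside ribosomal RNA, 80.3% of all genes had a log2 change above 0. The median was 0.38 over all genes and 0.67 over the members tested, so a rise on this scale was not particular to these genes. Large and small subunit genes kept a close balance in every library, with a ratio of large subunit sums, here including the stalk genes, to small subunit sums of 1.31 to 1.40 in knockout livers and 1.32 to 1.39 in control livers.

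**Figure D1:**
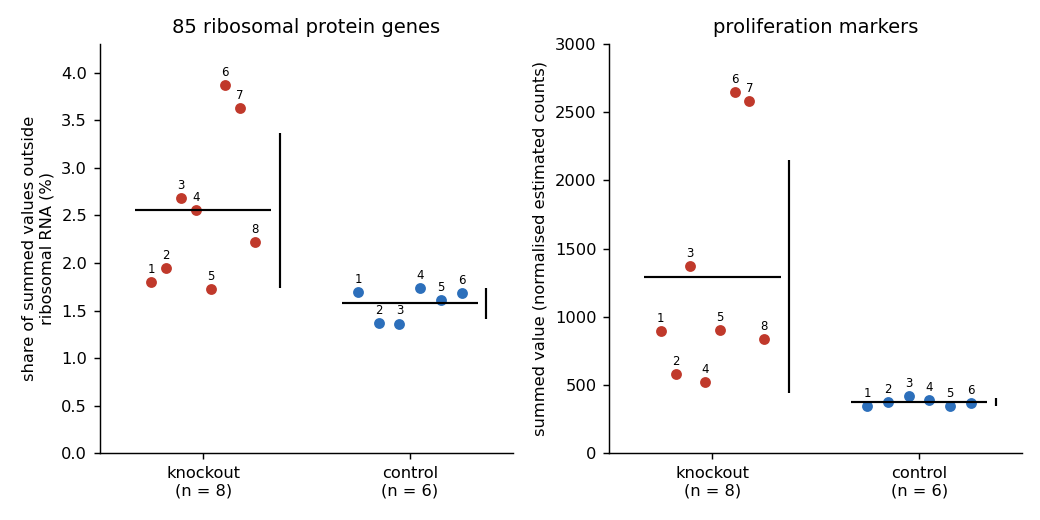
Share of the summed values outside ribosomal RNA taken by the 85 ribosomal protein genes (left, %) and summed value of 12 proliferation markers (right, normalised estimated counts), 1 numbered point per library, with the group mean as a horizontal line and ± 1 SD as a vertical bar. Knockouts 6 and 7 are highest in both, at 3.87 and 3.62% and at 2651 and 2579, and the control livers lie between 1.36 and 1.73% and between 344 and 420.

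Gene by gene, most members leaned upward in knockout livers but few passed the test. Of the 82 members tested, 75 had a log2 change above 0, and the median change was 0.33, against 0.05 over all 23554 genes tested, of which 54.7% had a change above 0. At a limma adjusted p of at most 0.05, 6 members were higher and 0 were lower. The background was 11.5% of all genes higher and 11% lower, so the count called is no larger than that of an average set of genes this size. At an unadjusted p of at most 0.05 there were 25 of the 82 members, all higher, against 18.7% of all genes higher and 16.3% lower at that p. The authors' deposited q-values also called 6 higher and 0 lower, against 10.3% of all genes higher and 9.79% lower. No member had knockout and control livers without overlap, while 4.14% of all genes were higher in every knockout liver and 4.02% lower in every knockout liver.

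**Figure D2:**
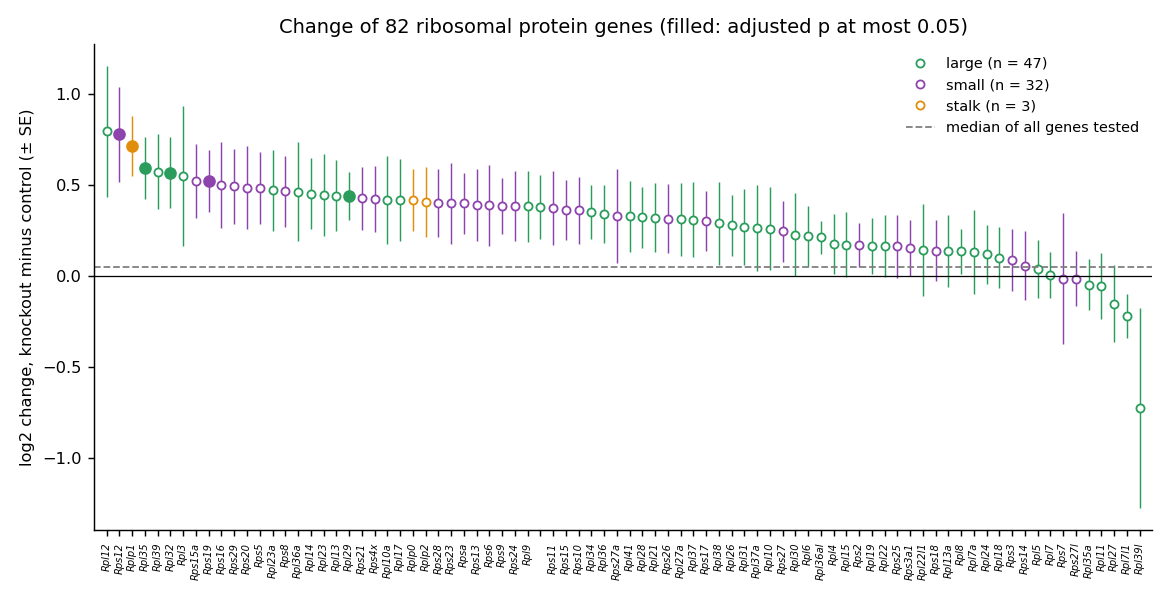
Log2 change, knockout minus control, with its standard error, for the 82 ribosomal protein genes tested, in order of size and coloured by subunit. Filled points are the 6 called members, the dashed line is the median of all genes (0.05), and 75 points lie above 0. 1 tick carries no name.

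The lean was shared by both subunits. The median change was 0.28 over 47 large subunit genes, with 3 called, 0.39 over 32 small subunit genes, with 2 called, and 0.42 over the 3 stalk genes, with 1 called. A few libraries carried the highest values: 56 of the 82 members were highest in knockout 6 and 19 in knockout 7. Without knockouts 3, 6 and 7 the median fell to 0.10, 57 members stayed above 0 and 1 was called higher and 0 lower, against a background of 9.19% higher and 9.24% lower. The proliferation markers ran highest in knockouts 3, 6 and 7. Of the 10 tested, 6 were called higher over all knockout livers, against 11.5% of all genes. Ribosomal protein sums did not keep the same order: knockout 4 had 459597 and knockout 3 had 407669, with proliferation sums of 525 and 1370. As shares outside ribosomal RNA these 2 libraries had 2.56 and 2.68%. Mitochondrial coding genes took 7.85 and 7.91% of values in knockouts 6 and 7 against 2.77 to 5.47% in control livers. The part of proliferation and mitochondrial genes in the ribosomal values was not tested.

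Among the stalk proteins, Rplp1 stood out. Rplp1 and Rplp2 form the acidic arms of the stalk and Rplp0 is their base. Rplp1 (ENSMUSG00000007892, chromosome 9, 61913284 to 61914542, minus strand, GRCm38) had 9585 to 20556 (median 13453) in knockout livers and 7301 to 10560 (median 8218) in control livers. Knockout 5 alone lay below the highest control liver, and all 8 knockout livers were above the control mean. The log2 change was 0.72 (SE 0.16), or 1.64-fold, with a limma adjusted p of 0.00551, and it was called without each single library in turn, with an adjusted p of 0.0018 to 0.0152, and without knockouts 3, 6 and 7 together (0.50, adjusted p = 0.0148). Rplp0 had 6718 to 13521 (median 8188) in knockout livers and 5290 to 7720 (median 6762) in control livers. Rplp2 had 6894 to 15426 (median 8723) in knockout livers and 5564 to 8455 (median 7265) in control livers. Both overlapped between the groups and missed the threshold, with log2 changes of 0.42 ± 0.17 and 0.41 ± 0.19 (SE; limma adjusted p = 0.0908 and 0.145).

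Among large subunit proteins, Rpl35, Rpl32 and Rpl29 were called higher. Rpl35, which sits near the exit of the peptide tunnel, had 650 to 1468 (median 894) in knockout livers and 455 to 830 (median 613) in control livers, a log2 change of 0.59 (SE 0.17; adjusted p by limma 0.0203). Its groups overlapped through knockouts 1, 2 and 4 and controls 1 and 6, and all 8 knockout livers were above the control mean. Rpl32 had 5832 to 15214 (median 8543) in knockout livers and 5202 to 7269 (median 5693) in control livers, a log2 change of 0.57 (SE 0.20, adjusted p 0.0477). Knockouts 6 and 7 were far above the rest, and knockouts 1, 2 and 5 lay within the control range. Rpl29, whose loss in mice is known to slow growth, had 6796 to 11837 (median 8312) in knockout livers and 5800 to 7412 (median 6322) in control livers, a log2 change of 0.44 (SE 0.13, adjusted p 0.0253). Here knockouts 1 and 5 alone lay under the highest control liver. The positions in GRCm38 are chromosome 2, 39001580 to 39005624, for Rpl35, chromosome 6, 115805505 to 115808747, for Rpl32 and chromosome 9, 106429454 to 106431568, for Rpl29.

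Among small subunit proteins, Rps19 and Rps12 were called higher. Rps19, the gene most often mutated in human Diamond-Blackfan anaemia, lies on chromosome 7 at 24884371 to 24889806. It had 5132 to 11589 (median 7015) in knockout livers and 4452 to 6222 (median 4845) in control livers, a log2 change of 0.52 (SE 0.17; adjusted p by limma 0.0383). The groups overlapped through knockouts 1, 2 and 5, which were at or under the highest control liver. Rps12, which in Drosophila takes part in cell competition, lies on chromosome 10 at 23785183 to 23787275. It had 281 to 849 (median 374) in knockout livers and 188 to 417 (median 232) in control livers, a log2 change of 0.78 (SE 0.26, adjusted p 0.0419). Knockouts 6 and 7 carried the highest values, and control 5 lay above knockouts 1, 2, 4, 5 and 8. Rpsa, the laminin receptor precursor that is also a small subunit protein, had 14410 to 28404 (median 17573) in knockout livers and 11432 to 18070 (median 14956) in control livers (log2 change 0.40 ± 0.17 SE, adjusted p = 0.105). Among members with the highest values, Rpl13a, Rpl41 and Rps2 were not called: the log2 change was 0.14 for Rpl13a, 0.33 for Rpl41 and 0.17 for Rps2 (adjusted p = 0.666, 0.256 and 0.338). The largest change of any member, 0.80 (SE 0.36) in Rpl12, was not called either (adjusted p = 0.127), with 55.4 to 285 (median 135) in knockout livers and 42.2 to 109.6 (median 80.5) in control livers, and is named here after its value was seen.

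**Figure D3:**
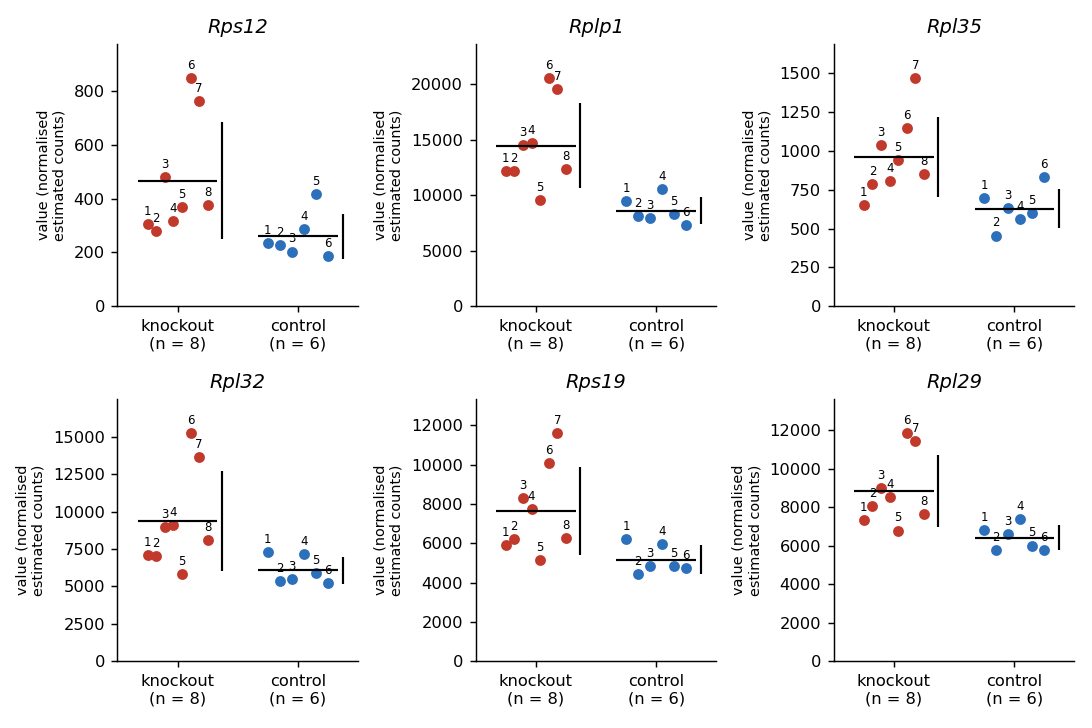
Values (normalised estimated counts) of the 6 called members in each library, numbered, with the group mean as a horizontal line and ± 1 SD as a vertical bar. Knockouts 6 and 7 hold the highest values in each panel, and the groups overlap in all of them.

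These calls leaned on single libraries in all but Rplp1. The number of members called higher was 16 without knockout 5, against 12.2% of all genes higher in that fit. It was 3 without knockout 3, 6 or 7 or without control 3 or 5, 2 without control 6 and 1 without control 2. In those fits 9.56 to 10.5% of all genes were called higher. Rpl35 lost its call without control 2, and Rpl29 without controls 2, 5 or 6. Rps19 lost it in 8 of the 14 leave-one-out fits, Rps12 in 9 and Rpl32 in 10, with limma adjusted p up to 0.0794, 0.0911 and 0.0952. None of the 5 was called without knockouts 3, 6 and 7 together: log2 changes were then 0.37 for Rpl35, 0.29 for Rpl32, 0.26 for Rpl29, 0.27 for Rps19 and 0.39 for Rps12 (adjusted p = 0.0916, 0.149, 0.0765, 0.146 and 0.165).

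The scale chosen for the libraries set how many members were called. The authors' scaling gave 51.1% of all calls as higher. Scaling the libraries to equal sums outside ribosomal RNA raised the median of all genes by 0.33, to 0.38, made 90.1% of all calls higher and called 60 members higher and 0 lower, against a background of 33.3% higher and 3.66% lower. The member median was then 0.67, which is 0.28 above that of all genes, as it was with the authors' scaling (0.28). The same scaling without knockouts 3, 6 and 7 called 34 higher and 0 lower, against 23.1% and 2.87%. Quantile normalization called 33 members higher and 0 lower, against a background of 10% higher and 10.2% lower, with a member median of 0.59 and a median of all genes of -0.003.

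Within the libraries marked by Y-linked genes, the member median was 0.14, 62 members were above 0 and 1, Rplp1, was called (0.58, limma adjusted p = 0.0251), against a background of 7.39% higher and 8.3% lower. In those with high Xist the median was 0.54, 77 members were above 0 and 0 were called by limma (5 at an unadjusted p of at most 0.05), against a background of 0.73% higher and 0.2% lower. That class held 4 knockout livers, among them knockouts 6 and 7, and 2 control livers. Depth was 11.1 to 19.3 M reads in the high-Xist libraries and 24.3 to 33.8 M reads in the others. Class and depth therefore cannot be told apart here. The difference of the change between the classes passed the threshold for no member (smallest limma adjusted p 0.813, Rpl3). It passed for only 13 of all genes, so the lack of calls does not show that members changed alike in both classes.

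The change was below 0 in 7 members, none of them called lower by limma, also at an unadjusted p of at most 0.05. Rpl11 and Rpl5 form, with 5S ribosomal RNA, a particle that binds Mdm2 when ribosome assembly fails. Rpl11 had 4101 to 6863 (median 5411) in knockout livers and 4163 to 8923 (median 5244) in control livers. Controls 1 and 4 lay above every knockout liver, and the log2 change was -0.05 (SE 0.18; adjusted p by limma 0.863). Rpl5 had 210 to 465 (median 282) in knockout livers and 271 to 303 (median 288) in control livers (log2 change 0.04 ± 0.16 SE, adjusted p = 0.890). Knockouts 6 and 7 lay above every control liver for Rpl5, and knockouts 1 and 5 below. Summed with the copies described further on, Rpl11 had a change of -0.01 (adjusted p = 0.962) and Rpl5 one of 0.19 (adjusted p = 0.467). Taken against the mean of the tested members in its library, Rpl11 had a change of -0.35 (SE 0.21, adjusted p by limma 0.268). Rpl5 then had -0.26 (SE 0.13, adjusted p by limma 0.198), so neither gene was called different from the member mean. Mdm2, the ubiquitin ligase that this particle inhibits, had a log2 change of 0.35 (adjusted p = 0.380) and Trp53 one of 0.17 (adjusted p = 0.479).

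Relative to one another, no member passed the test. With each value taken against the mean of the 82 members in its library, 0 were called by limma (6 at an unadjusted p of at most 0.05), against a background of 2.51% higher and 11.3% lower. This centring was chosen after the values were seen. The smallest adjusted p values were those of Rpl7l1, a relative of Rpl7 (-0.52, SE 0.17, adjusted p = 0.0545, 0 of 8 knockout livers above the control mean), Rplp1 (0.42, SE 0.14, adjusted p = 0.0554, 8 of 8 above) and Rpl35a, named here after its value was seen (-0.35, SE 0.13, adjusted p = 0.0846, 0 of 8 above). Rplp1 was the single member called when knockouts 3, 6 and 7 were left out (0.43, limma adjusted p = 0.0400), against a background of 3.57% higher and 4.57% lower.

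Over the 14 libraries, members followed their common mean closely. Pearson's r of a member with the mean log2 value of the 82, which includes that member and shares library and depth with it, had a median of 0.92, 46 members being above 0.9. Under 0.5 were 6 members, chosen here after their values were seen: Rpl7l1 (0.20), Rpl39l (0.25), Rps7 (0.32), Rpl11 (0.35), Rpl10 (0.43) and Rpl27 (0.45). The copies described further on held 88.4% of the summed value for Rps7, 90.5% for Rpl10 and 93.8% for Rpl27. For Rpl11 they held 37.3% and for Rpl7l1 0.566%. Rpl39l, with a mean of 11.2, lay near the filter. The part of read division and low values in these correlations was not tested. Outside the symbol rule, the protein-coding genes most like the member mean, of 16072, were Gm2000 (r = 0.968), which shares its sequence with Rpl35, and then Eef1b2 (0.965), Eif3f (0.952), Nme2 (0.949) and Creg1 (0.943). Eef1b2 is an elongation factor subunit, Eif3f an initiation factor subunit, Nme2 a nucleoside diphosphate kinase and Creg1 a secreted glycoprotein.

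Several ribosomal protein genes have a relative of like symbol, and some of these paralogs are known to take the place of the main protein in the ribosome. In 6 such pairs the ratio of paralog to main gene within a library, which does not depend on the library's scale, was compared by a two-sided exact permutation test over the 14 libraries, with p adjusted over the 6 pairs. Rps27l, a p53 target in human cells, was 33.2 to 50.8% of Rps27 (median 46.6%) in knockout livers and 46.4 to 66.7% (median 52.7%) in control livers. Control 6 was the single control liver that lay within the knockout range, and all 8 knockout livers were below the control mean. The log2 ratio was -1.15 ± 0.19 in knockout livers (SD, n = 8) and -0.89 ± 0.17 in control livers (SD, n = 6), a difference of -0.26 (exact p = 0.00733, adjusted p = 0.0440). The difference stayed between -0.30 and -0.20 with any 1 library left out, but 7 of those 14 fits lost the call (adjusted p up to 0.120), as did leaving out knockouts 3, 6 and 7 (-0.26, adjusted p = 0.104). The libraries concerned were knockouts 3, 4, 7 and 8 and controls 2, 4 and 5.

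Of this pair, Rps27 had the larger change and neither gene was called by itself. Rps27l, on chromosome 9 at 66946086 to 66949516, had 2099 to 3884 (median 2665) in knockout livers and 2154 to 3348 (median 2746) in control livers, a log2 change of -0.01 (SE 0.15; adjusted p by limma 0.959). Rps27, on chromosome 3 at 90212522 to 90213651, had 4131 to 8373 (median 5853) in knockout livers and 4192 to 6474 (median 4779) in control livers, a log2 change of 0.25 (SE 0.17, adjusted p 0.319). The groups overlapped for both. Copies of these genes elsewhere in the genome held 0.174 and 0.402% of the summed value of Rps27l and Rps27 with their copies.

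The other pairs did not pass. Rpl39l, a form of Rpl39 known from the testis, was at 0 to 14.1 (median 10.5) in knockout livers and 5.28 to 29.2 (median 12.9) in control livers, and Rpl39 at 1487 to 4293 (median 2646) in knockout livers and 1476 to 2213 (median 1692) in control livers. Their log2 ratio differed by -1.30 (exact p = 0.0226, adjusted p = 0.0679), on Rpl39l values that are near the filter and at 0 in knockout 5. Without knockout 2 or control 1 the adjusted p was 0.0455 and 0.0140. Rpl22l1, which in mouse is repressed by Rpl22, was 5.91 to 12.0% of Rpl22 (median 8.36%) in knockout livers and 6.39 to 11.1% (median 8.24%) in control livers, a difference in log2 ratio of -0.02 (exact p = 0.903). Rpl36al to Rpl36a differed by -0.25 (exact p = 0.347) and Rpl7l1 to Rpl7 by -0.23 (exact p = 0.113). Rps4l, which the table types as a transcribed pseudogene and which is no member, to Rps4x differed by 0.36 (exact p = 0.0370, adjusted p = 0.0739), and its adjusted p was 0.0455, 0.0295 and 0.0490 without knockout 6, control 1 and control 3.

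**Figure D4:**
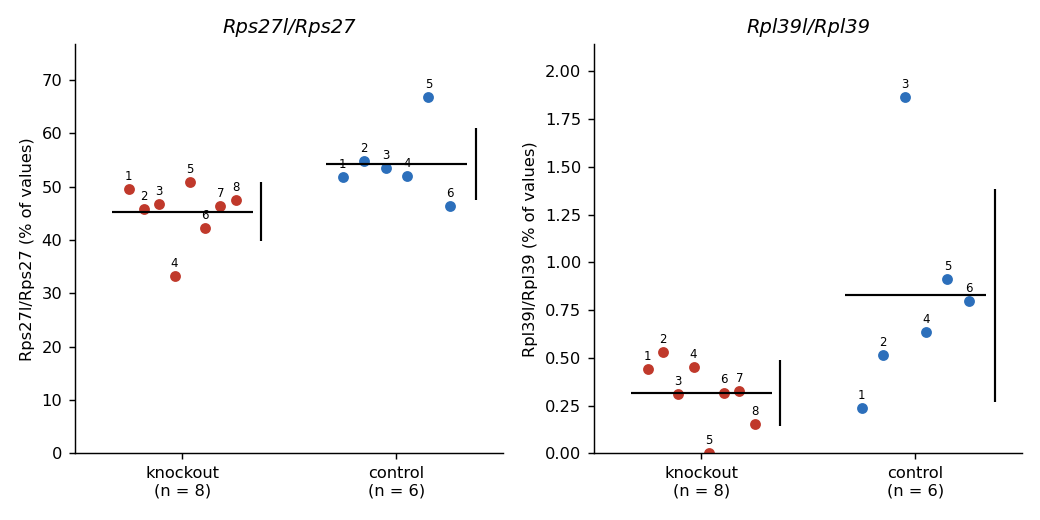
Value of Rps27l as a percentage of Rps27 (left) and of Rpl39l as a percentage of Rpl39 (right) in each library, numbered, with the group mean as a horizontal line and ± 1 SD as a vertical bar. For Rps27l the knockout livers lie between 33.2 and 50.8% and the control livers between 46.4 and 66.7%.

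Sequence shared with other genes blurs some of these values. A gene outside the members was taken as a copy when at least 25% of the 31-base words of 1 of its transcripts occur in the member's transcript. This rule was set after the values were seen. There were 625 copies. In the median member 64.0% of its words occur in another gene. Estimated counts can divide reads between such genes, and the share going to each is then uncertain. For 25 of the 82 members the copies held over 50% of the summed value, among them Rpl12 (98.0%), Rpl5 (97.7%), Rps12 (93.3%) and Rpl35 (89.0%). For 32 members they held under 5%, among them Rplp1 (0.959%), Rps19 (0.893%) and Rpl32 (0.574%), and for Rpl29 they held 15.3%. The median log2 change was 0.36 over those 32 members, with 3 called, and 0.40 over the 25, with 2 called. Over all genes 11.5% were called higher.

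With each member summed with its copies, 5 of 82 were called higher and 0 lower, against 11.7% of all genes higher and 11.2% lower in that fit, and the member median was 0.32. Rps12 with its copies had 3914 to 13959 (median 6051) in knockout livers and 2562 to 4351 (median 3517) in control livers, a log2 change of 0.93 (SE 0.28; adjusted p by limma 0.0260). Knockouts 2 and 5 lay within the control range and the other 6 knockout livers above it. Rplp1, Rps19 and Rpl32 kept their calls (adjusted p = 0.00551, 0.0375 and 0.0465) and Rpl13 gained one (0.52 ± 0.15 SE, adjusted p = 0.0237, against 0.44 ± 0.20 SE and 0.121 alone). Rpl35 and Rpl29 lost theirs, with log2 changes of 0.50 and 0.35 (adjusted p = 0.110 and 0.0651). The member that moved most, chosen here after its values were seen, was Rps7. It is a small subunit protein that also binds Mdm2. Alone it had 351 to 1657 (median 952) in knockout livers and 332 to 1342 (median 991) in control livers, a log2 change of -0.01 (SE 0.36, adjusted p 0.983). With copies, which held 88.4% of the sum, it had 5989 to 17692 (median 8371) in knockout livers and 5467 to 7674 (median 6421) in control livers, a change of 0.54 (SE 0.21, adjusted p 0.0716). Of 347 copies tested on their own, 275 had a change above 0 and the median log2 change was 0.33. Of them 24 (6.92%) were called higher and 1 (0.288%) lower, both shares under the 11.5 and 11% of all genes.

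**Figure D5:**
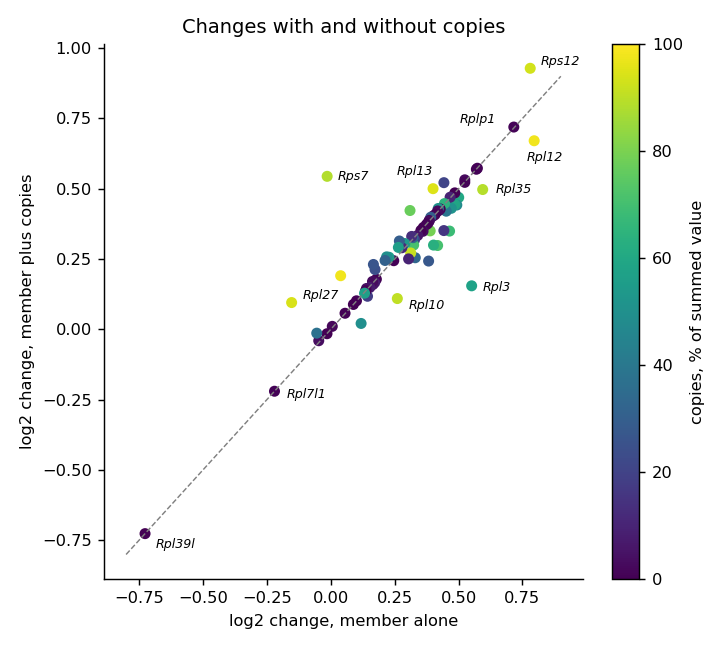
Log2 change, knockout minus control, of each of the 82 members alone (horizontal) and summed with its copies (vertical), coloured by the percentage of the summed value held by the copies, with the line of equal change dashed. Members with few copies lie on the line, and Rps7 lies farthest above it, at -0.01 alone and 0.54 with copies.

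Genes that work with the ribosome were called in both directions. Of 60 ribosome assembly factors, 11 were called higher and 8 lower, against the background of 11.5 and 11%, with a median log2 change of 0.02. The largest were Grwd1, whose yeast counterpart is a chaperone of Rpl3, with 644 ± 189 in knockout livers and 242 ± 20.8 in control livers (SD, n = 8 and 6; log2 change 1.36, limma adjusted p = 5e-05, 1.10 without knockouts 3, 6 and 7), and Aen, an exonuclease known from p53-dependent cell death, with 388 ± 179 in knockout livers and 150 ± 8.94 in control livers (SD, n = 8 and 6; log2 change 1.23, adjusted p = 0.00239). Of 15 genes of RNA polymerase I and its factors, which make ribosomal RNA, 5 were higher and 2 lower, led by the subunit Znrd1 (-0.75, adjusted p = 0.000214) and the promoter factor Taf1c (0.74, adjusted p = 0.0216). Without knockouts 3, 6 and 7, 7 assembly factors were higher and 9 lower, against 9.19 and 9.24% of all genes. Of the polymerase genes 0 were then higher by limma (4 at an unadjusted p of at most 0.05) and 2 lower.

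Of 23 elongation factors and other TOP mRNAs, 3 were higher and 1 lower, with a median of 0.14. The background for this and the following lists was 11.5% of all genes higher and 11% lower. Without knockouts 3, 6 and 7 it was 9.19 and 9.24%. Eef1b2 rose by 0.62 (limma adjusted p = 0.0444) and Eif4a2, an RNA helicase of initiation, fell by 0.47 (adjusted p = 0.00391). Fau, which encodes a small subunit protein fused to a ubiquitin-like sequence, was not called (0.19, adjusted p = 0.455). Of 12 TOP host genes of small nucleolar RNAs, 2 were higher and 0 lower: Snhg15 (1.23, adjusted p = 0.0228) and Epb41l4aos (0.89, adjusted p = 0.00414), while Gas5 had 0.31 (adjusted p = 0.339). Of 24 regulators of TOP mRNAs, 2 were higher and 5 lower. Myc, a transcription factor for ribosome genes, had 552 ± 421 in knockout livers and 120 ± 69.7 in control livers (SD, n = 8 and 6; log2 change 1.94, adjusted p = 0.0120, and 1.16 with adjusted p = 0.0567 without knockouts 3, 6 and 7). Eif4ebp1, a translation repressor under mTOR, rose by 0.61 (adjusted p = 0.0396), and Larp1, which binds TOP tracts, had 0.21 (adjusted p = 0.149). The 5 lower genes were Rps6kb2, an S6 kinase (-0.53, limma adjusted p = 0.00197), Cnbp, a nucleic acid binding protein (-0.46, 0.00118), Rheb, the GTPase that activates mTOR (-0.43, 0.0345), Tial1, an RNA-binding protein (-0.36, 0.00589), and Eif4ebp2, a relative of Eif4ebp1 (-0.36, 0.0249). Of 12 ribosomal stress genes, 2 were higher, Pelo, a ribosome rescue factor (0.84, adjusted p = 0.00499), and Map3k20, a kinase that senses stalled ribosomes (0.57, adjusted p = 0.0188). The 3 lower ones were Hbs1l, the partner of Pelo in rescue (-0.56, limma adjusted p = 0.00700), Zfp598, a ubiquitin ligase that marks collided ribosomes (-0.40, 0.0163), and Mdm4, a p53 inhibitor (-0.26, 0.0372). Without knockouts 3, 6 and 7, limma called 0 higher and 2 lower of the elongation and TOP list (3 higher at an unadjusted p of at most 0.05), 0 higher and 4 lower of the TOP regulators (2 higher at that p) and 1 higher and 1 lower of the stress genes.

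Cell type markers moved beside the ribosomal genes. Over all genes 11.5% were called higher and 11% lower, and 9.24% lower without knockouts 3, 6 and 7. Of 12 hepatocyte markers 7 were called lower, led by Serpina1c (-1.32, limma adjusted p = 0.0174) and Alb (-1.07, adjusted p = 0.00105). Of 10 proliferation markers 6 were called higher, led by Mcm6 (2.38, adjusted p = 0.000185) and Ccnb2 (1.89, adjusted p = 0.00957). Of 9 cholangiocyte markers 3 were higher, led by Sox9 (1.70, adjusted p = 0.000304) and Epcam (1.31, adjusted p = 0.0422), and the list summed to 1747 to 4187 in knockout livers against 1116 to 2101 in control livers. Of 10 endothelial markers 3 were lower, led by Clec4g (-0.54, adjusted p = 0.00649) and Erg (-0.48, adjusted p = 0.0302), with sums of 4407 to 7749 in knockout livers and 6133 to 7796 in control livers, and 1 was lower without knockouts 3, 6 and 7. Of 12 stellate cell markers 2 were lower, Ecm1 (-0.51, adjusted p = 0.0363) and Colec11 (-0.49, adjusted p = 0.0332), with sums of 5450 to 9513 in knockout livers and 8098 to 10266 in control livers. None of 12 Kupffer cell, 15 lymphocyte, 7 erythroid and 3 neutrophil markers was called by limma, the smallest p in each list being those of Cd68 (adjusted p = 0.232), Cd79b (0.107), Klf1 (0.0586) and Cxcr2 (0.121). Every gene of these lists in the table had reads in some library. The part of these shifts in the ribosomal values was not tested.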

How the data were processed

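Total RNA of 14 livers, 8 knockout and 6 control, was sequenced by the submitters from libraries of a stranded total RNA kit for low input, per the labels' protocols. Per the submitters' processing notes kallisto, sleuth and the build mm10 were used; versions, the transcript index and the strand setting are not given in the sources used here. The deposited table holds 75859 lines for 54446 genes. Its per-library values are a signal, the authors' normalised estimated counts per gene. Beside them the authors deposited p-values, q-values and a natural log change of their own Wald test. About 29.1% of low values were whole multiples of 1 read's worth (within 0.02), so counts were not recovered and no count model was run. That worth gave the depths, 11.1 to 33.8 M reads, and intervals based on counts are not given.

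Genes were tested with limma 3.58.1 (R 4.3.3, trended prior variance) on log2(value + 1), for the 23554 genes that reached 10 in at least 6 libraries, with Benjamini-Hochberg adjustment over all of them and a threshold of 0.05. Fold changes on this scale understate those of low genes. Paralog ratios were tested by exact permutation over 3003 splits (R 4.3.3). Sequence searches, library summaries and figures were made with Python 3.11.15. All 85 members matched GENCODE M21, whose shortest principal transcripts gave lengths and 31-base words; shortest was preferred to longest after the lengths were seen. Promoters are from RefSeq. The method was tested on simulated data. Named genes were Mettl3, called members, paralog pairs, stalk genes and Rpsa, some of the highest members, Rpl5 and Rpl11, up to 2 per other list, and the 5 genes most like the member mean. Mdm2, Trp53, Larp1, Gas5, the genes called lower among TOP regulators and ribosomal stress genes, and the members the text marks so were added after the values were seen. Members and lists were chosen with earlier results of these data known. Alternatives covered filters, pseudocounts, scaling, covariates, a replicate block and left-out libraries.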

Additional observations from a re-analysis of the deposited data

How the results depend on the processing

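In this section, a percentage in brackets after a count of members is the share of all genes called higher in the same setting. The 6 members called higher (11.5%) became 1 at an adjusted p of at most 0.01 (5.57%), 3 at 1.5-fold or more (8.22%) and 2 with no filter on low values (4.29%). With equal sums outside ribosomal RNA they became 60 (33.3%), with a median change of 0.67. With that scaling and without knockouts 3, 6 and 7 they became 34 (23.1%). They became 33 with quantile normalization (10%), 1 in the Y-positive libraries (7.39%) and 0 in the Xist-high libraries (0.73%). In the Xist-high libraries 5 members had an unadjusted p of at most 0.05 by limma. The count was 2 with log2 depth as a covariate (10.6%) and 1 without knockouts 3, 6 and 7 (9.19%). Relative to the member mean it was 0 (2.51%), and 1 (3.57%) relative to it without those knockouts. With replicate number as a block 2 were called (8.62%). Same-numbered libraries correlated at 0.142 to 0.228 for 5 of the 6 numbers and at 0.0707 for number 3. Knockouts 1, 2 and 3, but not 4, 5 and 6, correlated best with the control of their own number. The labels name no shared source, so the numbers were not taken as pairs, though a pairing was not excluded. Leaving out 1 library gave 1 to 16 calls (9.29 to 12.2%), and no setting tried called a member lower. The Rps27l to Rps27 ratio was -0.29 in Y-positive libraries, -0.26 in Xist-high ones and -0.26 without knockouts 3, 6 and 7, all past the threshold no longer, and -0.30 to -0.20 with 1 library left out. The difference in log2 ratio of Rpl22l1 to Rpl22 turned to 0.12 in Xist-high libraries (-0.10 to 0.065 with 1 left out). That of Rpl36al to Rpl36a turned to 0.018 without knockouts 3, 6 and 7. With 1 left out, the difference ran from -1.58 to -0.99 for Rpl39l to Rpl39 and from 0.26 to 0.44 for Rps4l to Rps4x. Single genes were followed only for Mettl3, called members, the tested paralog pairs, stalk genes, Rpsa, the highest members, Rpl5 and Rpl11. Other members turned sign too: 75 were above 0 in the main fit and 57 without knockouts 3, 6 and 7. Among the genes followed, the changes that turned sign, none of them called in either setting, were these. With equal sums, Rps27l had 0.32, Rpl7l1 0.12 and Rpl11 0.28 (0.080, 0.043 and 0.18 also without knockouts 3, 6 and 7). With quantile normalization Rps27l had 0.21 and Rpl11 0.22, and with median ratio factors Rpl7 had -0.030. In Y-positive libraries Rpl22l1 had -0.16, Rpl22 -0.028, Rpl7 -0.10, Rpl13a -0.052 and Rpl5 -0.13; in Xist-high ones Rps27l had 0.28 and Rpl11 0.22. With Xist class as a covariate Rpl7 had -0.013 and Rpl11 0.0037; with depth Rpl7 had -0.037, Rpl5 -0.028 and Rpl11 0.046. Without knockouts 3, 6 and 7 Rpl22l1 had -0.20, Rpl22 -0.037, Rpl7 -0.12, Rpl13a -0.071 and Rpl5 -0.17. With the replicate block Rpl22l1 had -0.021, Rpl7 -0.019 and Rpl5 -0.040. With 1 library left out Rps27l ran from -0.089 to 0.045, Rpl7 from -0.067 to 0.050, Rpl5 from -0.055 to 0.11 and Rpl11 from -0.14 to 0.076. The causes were not tested. Centring on the member mean, summing with copies and the joint setting were added after the data were seen. Depth limits Rpl39l, Rpl3l, Rpl10l and Rps27rt most.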
